A study of Mus musculus with 6 samples.

Results

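The homeostatic microglia genes are 8 genes that mark surveying microglia of the healthy brain: P2ry12, P2ry13, Gpr34, Cx3cr1, Csf1r, Tmem119, Siglech and Fcrls. They were given as a list of names. All 8 were found among the 22833 genes of the NG2 table and among the 21008 genes of the Tbx18 table. For each gene, counts of unique molecular identifiers (UMIs) were summed over the cells of NG2 cluster 9 (218 of 10455 cells) and Tbx18 cluster 3 (659 of 6578 cells), which are the clusters that the study named microglia, and set against the other clusters of the same line. The clusters were built from gene expression, so the position of these genes in them is a description and no test.

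The study followed the descendants of pericytes, the cells that wrap brain capillaries, after cortical injury. Its mice carried NG2-CreERT2 or Tbx18-CreERT2 with the Ai14 reporter, in which tamoxifen switches on tdTomato (tdT) in cells that use the driver gene. Each line had a naive group without injury, a physical injury group injected with saline in the cortex and an ischemic injury group injected there with ET-1/L-NAME, a vessel constrictor with an inhibitor of nitric oxide synthesis. The mice were 3 to 4 months old, all groups received tamoxifen (7 days before surgery in the injured mice), and injured cortex was taken after 3 days. The cells of pooled animals were sorted as tdT+/DAPI- and sequenced as 1 droplet 3' library a group, 6 libraries in all. NG2 is made by oligodendrocyte precursors as well as pericytes, and Tbx18 by smooth muscle as well as pericytes, so the drivers do not mark pericytes alone, and the sort decides which cells enter a library.

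Microglia are the resident macrophages of brain tissue. They depend on signals through Csf1r, the receptor of CSF1 and IL-34, and in the undisturbed brain they hold a gene programme that sets them apart from blood monocytes and from the macrophages of the meninges and vessel walls. P2ry12 senses ADP released by damaged cells and steers microglial processes towards it, and several of these genes are known to lose expression when microglia become activated.

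P2ry13 and P2ry12 are neighbours on chromosome 3 (GRCm38, GENCODE M21), both on the minus strand: P2ry13 lies at chr3:59207892-59210882 and P2ry12 at chr3:59216272-59262871. P2ry14, another receptor gene of this family on the same strand, lies beside them at chr3:59113855-59153618, and all 3 sit inside Med12l, a gene of the opposite strand at chr3:59005825-59318682. The 250 bases before the RefSeq start of P2ry13 and of P2ry12 (GRCm38.p6, minus strand, 5′ to 3′) are shown. Both genes were highest in NG2 cluster 9 and Tbx18 cluster 3 but differed in how far they were found outside them. In the NG2 line, 83.8% of P2ry12 and 97.9% of P2ry13 UMIs were in cluster 9. Capitals mark GAGGAA, a core that PU.1 (Spi1), the myeloid transcription factor, can bind, searched on both strands.
P2ry13, chr3:59210883-59211132: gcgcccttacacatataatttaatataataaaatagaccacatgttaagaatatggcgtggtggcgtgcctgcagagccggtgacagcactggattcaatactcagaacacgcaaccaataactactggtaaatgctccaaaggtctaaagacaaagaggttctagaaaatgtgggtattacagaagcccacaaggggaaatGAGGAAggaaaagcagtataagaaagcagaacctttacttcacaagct
P2ry12, chr3:59262986-59263235: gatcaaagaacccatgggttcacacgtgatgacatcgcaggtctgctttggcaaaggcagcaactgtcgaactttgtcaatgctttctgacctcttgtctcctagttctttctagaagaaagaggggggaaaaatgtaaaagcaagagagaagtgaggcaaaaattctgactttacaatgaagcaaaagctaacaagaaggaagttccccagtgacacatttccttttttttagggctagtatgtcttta
The P2ry13 stretch holds GAGGAA once, and the P2ry12 stretch holds none. Other sequences that PU.1 can bind were not searched. Bases after the RefSeq start were found in the 1 GENCODE transcript of P2ry13 and in 0 of the 5 of P2ry12. The P2ry12 stretch begins at 59262986, apart from the GENCODE gene, which reaches 59262871, so it may not be the promoter of those transcripts. A link of these letters to where the genes were found was not tested. The RefSeq promoter table matched 5 of the 8 genes (P2ry12, P2ry13, Fcrls, Siglech and Cx3cr1), of which 2 (40.0%), P2ry13 and Fcrls, held these letters, against 6252 of 27025 genes (23.1%) overall. A match of 6 letters is a description and not a binding site.

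Fcrls lies at chr3:87250758-87263738 on the minus strand, Tmem119 at chr5:113793729-113800516 on the minus strand and Siglech at chr7:55768178-55778925 on the plus strand. Gpr34 (chrX:13632089-13640858, plus strand) lies within Cask, a gene of the opposite strand. Cx3cr1 (chr9:119901616-120069879, minus strand) overlaps 9 other genes in this annotation, some on its own strand. Whether reads of a neighbour enter its counts was not tested.

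The NG2 libraries held 20264659 (naive), 24674494 (physical injury) and 54276245 (ischemic injury) UMIs in 4306, 2563 and 3586 cells. Of these, 18, 36 and 164 cells were in cluster 9, with medians of 10449.5, 16124.5 and 19742 UMIs. Levels are counts per 1000000 UMIs of the same cells (CPM), with 95% exact Poisson intervals, and shares of cells carry 95% Clopper-Pearson intervals. With 1 library a group there is no replicate: all intervals cover counting error only, no p-value is given, and differences between animals, sorts and libraries cannot be told apart from those of the conditions. Pairs of libraries shared at most 5 cell barcodes, and none was shared between cells of the 2 clusters. In droplet data, RNA from broken cells gives every cell a few UMIs of genes it does not express. Levels in the other clusters are given for some results and not beside each one. The summed list had 10.8, 10.4 and 13.5 CPM over the other clusters of the naive, physical injury and ischemic injury NG2 libraries.

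The 8 genes were concentrated in cluster 9 of the NG2 line, which held 27555 of their 28706 UMIs (96.0%) in 218 of 10455 cells. Their summed level was 6327 CPM there and 12.1 CPM over the other clusters, a ratio of 521-fold (492 to 554). All 8 were at least 2-fold higher in cluster 9, against 13.9% of the 18439 genes counted, and the ratio of single genes went from 113-fold for P2ry12 to 2870-fold for Fcrls. Tmem119, a membrane protein of unsettled function that is used as a microglia marker, had 933 UMIs in cluster 9 and 8 in all other cells. P2ry13, another ADP receptor, had 371 and 8. P2ry12 was the least restricted gene of the list, with 83.8% (82.3 to 85.2) of its UMIs in cluster 9. Most cells of cluster 9 held leukocyte transcripts, counted as UMIs of at least 3 of 6 leukocyte genes (Ptprc, Tyrobp, Fcer1g, Laptm5, Ctss and Spi1). They were 17 of the 18 naive cells, 31 of the 36 of physical injury and 155 of the 164 of ischemic injury. These genes are not particular to microglia, so the shares do not tell microglia from other leukocytes.

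**Figure D1:**
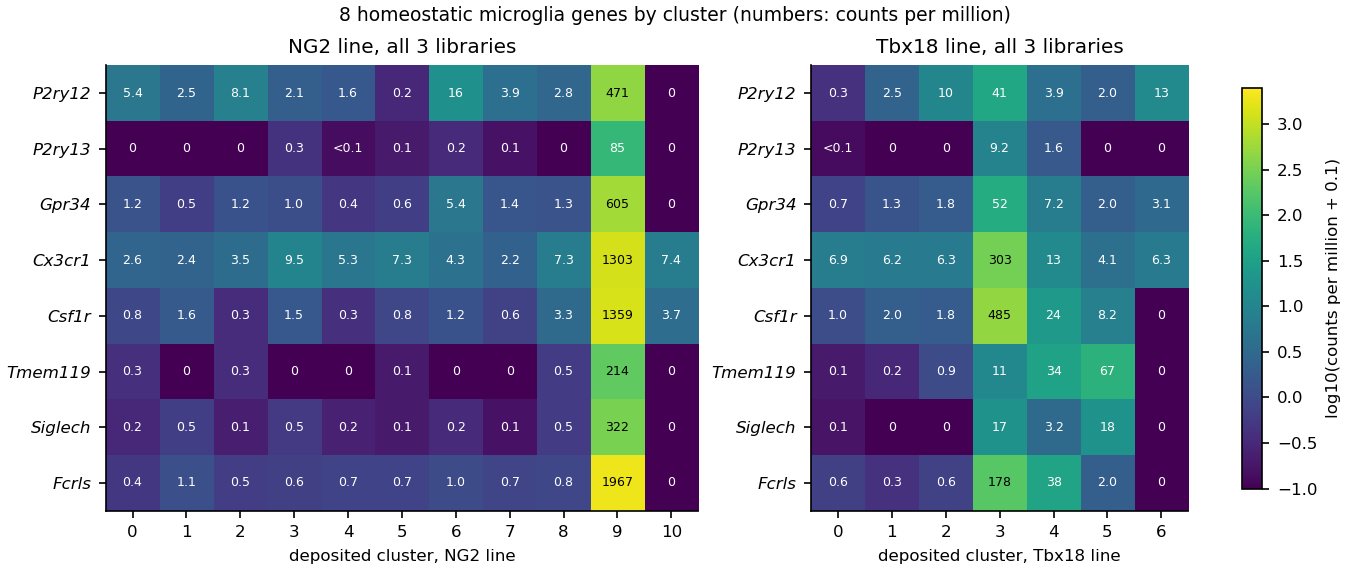
CPM of the 8 genes, summed over all 3 libraries of a line, by deposited cluster (columns; NG2 left, Tbx18 right); colours follow log10(CPM + 0.1) and the numbers are CPM. NG2 cluster 9 is the highest column for every gene, while Tmem119 in the Tbx18 line was at 67.3 CPM in cluster 5 and at 34.0 in cluster 4, above its 11.4 CPM in cluster 3.

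Among the receptors for nucleotides and lipids, P2ry12 had 1238 CPM (1083 to 1411) in naive cluster 9, 633 (570 to 702) after physical injury and 406 (385 to 427) after ischemic injury. The intervals of the 3 libraries did not overlap, and the level was lower after physical injury by a log2 ratio of -0.97 (-1.21 to -0.72) and after ischemic injury by -1.61 (-1.81 to -1.40). The share of cells with a P2ry12 UMI did not follow this order: 77.8% of cells in the naive, 86.1% in the physical injury and 80.5% in the ischemic injury library had one, although such shares also depend on depth, which was lowest in the naive cells. The median cell had 1449 CPM in the naive, 402 in the physical injury and 268 in the ischemic injury library. P2ry13 had 175 CPM (119 to 246, 32 UMIs), 81.7 (60.1 to 109) and 81.2 (72.1 to 91.0), with log2 ratios to naive of -1.09 (-1.77 to -0.40) and -1.10 (-1.63 to -0.53). Both injured libraries were thus below the naive one for P2ry13 and did not differ beyond counting error from each other, at -0.01 (-0.46 to 0.47). Gpr34, a receptor for lysophosphatidylserine, had 1108 CPM (960 to 1271), 861 (787 to 940) and 539 (515 to 564). The ischemic injury library was the lowest, by -1.04 (-1.25 to -0.82) against naive and by -0.68 (-0.82 to -0.53) against physical injury on the log2 scale.

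Cx3cr1, the receptor of the neuronal chemokine fractalkine, had 2128 CPM (1922 to 2350) in the naive, 1489 (1391 to 1592) in the physical injury and 1231 (1195 to 1268) in the ischemic injury library. Csf1r had 2051 (1849 to 2270), 1485 (1387 to 1588) and 1304 (1267 to 1342). Both had UMIs in 83.3% to 89.0% of the cells of each library. Their log2 ratios of ischemic injury to naive, -0.79 (-0.94 to -0.64) for Cx3cr1 and -0.65 (-0.81 to -0.50) for Csf1r, were the smallest among the 7 genes that were lower, while after physical injury the smallest was that of Gpr34, at -0.36 (-0.60 to -0.12), against -0.52 and -0.47. Counted per 100 Csf1r UMIs, a measure that no library total enters, Cx3cr1 stood at 104 in the naive, 100 in the physical injury and 94.4 in the ischemic injury library.

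Siglech, a sialic acid binding lectin, followed the order of P2ry12: 889 CPM (758 to 1037) in naive, 511 (455 to 573) in physical injury and 263 (246 to 280) in ischemic injury cluster 9. It had the lowest ischemic to naive ratio of the list, -1.76 (-2.00 to -1.51) on the log2 scale, and was also lower after ischemic than after physical injury, by -0.96 (-1.15 to -0.77). Its median cell went from 622 CPM in the naive to 472 in the physical injury and 82.0 in the ischemic injury library. Tmem119 had another order, with 480 CPM (385 to 592), 179 (146 to 217) and 206 (192 to 222). Physical injury was its lowest library, at 0.373 times (0.278 to 0.502) the naive level, and the injured libraries did not differ beyond counting error (0.20, -0.10 to 0.52, log2 ratio of ischemic to physical injury).

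Fcrls, an Fc receptor-like surface protein, ran the opposite way. Its level was 906 CPM (773 to 1054) in naive, 1381 (1287 to 1481) in physical injury and 2114 (2067 to 2162) in ischemic injury cluster 9, and the share of cells with a UMI was 66.7%, 77.8% and 88.4%. The 3 intervals of the level did not overlap, and the log2 ratio to naive was 0.61 (0.37 to 0.86) after physical and 1.22 (1.00 to 1.45) after ischemic injury. Per 100 Csf1r UMIs, Fcrls stood at 44.1 (36.6 to 53.1) in naive, 93.0 (84.3 to 103) in physical injury and 162 (156 to 168) in ischemic injury, while P2ry12 stood at 60.4, 42.6 and 31.1 and Siglech at 43.4, 34.4 and 20.1. In median cells, the Fcrls level was 1012 CPM in naive, 991 in physical injury and 1825 in ischemic injury, so the difference of physical injury from naive was not seen in the median cell.

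**Figure D2:**
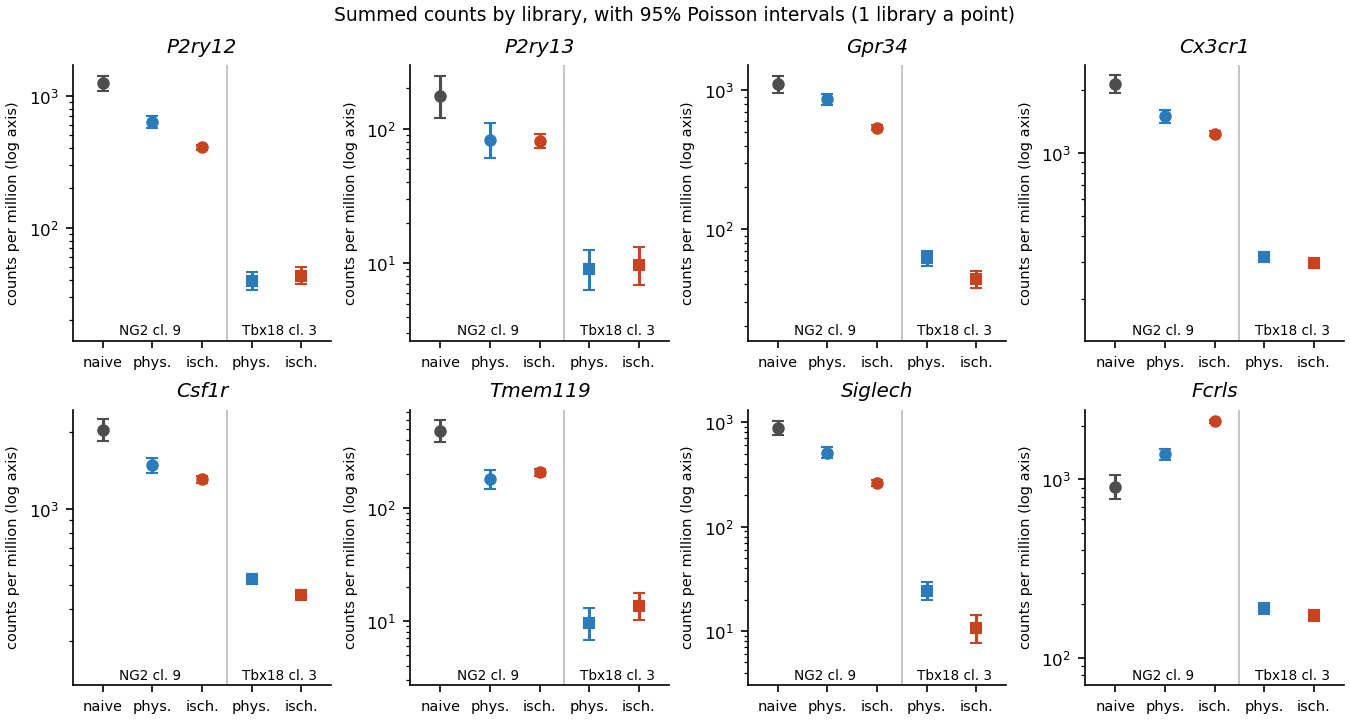
Summed counts as CPM (log axes) of each gene in NG2 cluster 9 (circles) and Tbx18 cluster 3 (squares) by condition, 1 library a point, with 95% Poisson intervals as bars. In NG2 cluster 9 the naive point is the highest for 7 genes and the lowest for Fcrls (906 CPM against 1381 and 2114), and each square of Tbx18 cluster 3 lies below every circle of the same gene.

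Set against all genes, at least 2-fold lower levels were found for 2 of the 8 genes (P2ry13 and Tmem119) after physical injury against naive, where 6.32% of 5383 counted genes were, and for 5 of 8 (P2ry12, P2ry13, Tmem119, Siglech and Gpr34) after ischemic injury, where 11.8% of 9845 were. In the other direction, 0 of 8 were at least 2-fold higher after physical injury (14.0% of all genes) and 1 of 8, Fcrls, after ischemic injury (24.0%). Between ischemic and physical injury no gene of the list passed 2-fold either way, where 9.18% of 10066 genes were higher and 5.58% lower. The median log2 ratio of the list was -0.66 in physical injury against naive and -1.07 in ischemic injury against naive. The medians over genes with counts in both groups were 0.08 (5321 of the 5383 genes) and -0.01 (8824 of the 9845). Genes without counts in 1 of the groups could only count as past 2-fold, and the shares of all genes include them. Of all 9845 genes, 5398 were higher and 4447 lower in ischemic injury. The summed level of the list moved less, since Fcrls ran against the rest: 8975 CPM (8546 to 9419) in naive, 6622 (6413 to 6835) in physical injury and 6144 (6064 to 6226) in ischemic injury. The log2 ratio of the sum for ischemic against physical injury, -0.11 (-0.16 to -0.06), turned to 0.02 with TMM factors in place of totals.

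The naive cluster 9 rests on 18 cells, and the cell with the most UMIs of a gene held 11.7% to 22.2% of that gene's UMIs there. Of these cells, 1 held 981 of the 986 UMIs of 4 antigen presentation genes (Cd74, H2-Aa, H2-Ab1 and H2-Eb1) and only 2 UMIs of the list. Without cells of at least 20 such UMIs (1 naive, 0 physical injury and 6 ischemic injury cells), the log2 ratio of the summed list was -0.58 (-0.66 to -0.49) for physical injury and -0.66 (-0.74 to -0.59) for ischemic injury against naive, and Fcrls stood at 0.47 and 1.11. Of the lists of other brain cells, those of pericytes and oligodendrocytes had their highest level in ischemic injury cluster 9. The other lists did not. Endothelial genes had summed levels of 21.8, 19.1 and 14.7 CPM in naive, physical injury and ischemic injury. Oligodendrocyte precursor genes had 16.4, 13.9 and 10.3 CPM and smooth muscle genes 49.1, 6.96 and 23.1. Fibroblast genes had 16.4, 17.4 and 17.2 CPM and astrocyte genes 0, 17.4 and 3.34. The summed level of 7 pericyte genes was 98.2 CPM in naive, 34.8 in physical injury and 232 in ischemic injury cluster 9. That of 5 oligodendrocyte genes was 109, 93.9 and 547 CPM. All 7 and all 5 were at least 2-fold higher in ischemic than in physical injury, where 9.18% of 10066 genes were. Of the 7 pericyte genes, 2 had no UMI in physical injury cluster 9 and could only count as higher. Rgs5, a pericyte gene, had 16.4, 3.48 and 56.4 CPM. Cells with UMIs of at least 3 different pericyte, smooth muscle, endothelial or oligodendrocyte genes were left out in an alternative that kept 12, 26 and 80 cells. Deeper cells meet this cut more easily, and the median UMIs of cluster 9 were 10449.5 in naive, 16124.5 in physical injury and 19742 in ischemic injury. The part of depth in the ratios that follow was not tested. In the cells kept, P2ry12 was lower in ischemic injury than in naive by -0.98 on the log2 scale, and so no longer past 2-fold. The log2 ratio of the summed list to naive was -0.31 after physical and -0.26 after ischemic injury in the cells kept.

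Other genes of the same programme were lower too. Of 14 other genes known from homeostatic microglia, 4 were at least 2-fold lower after physical injury and 10 after ischemic injury against naive. The shares of all genes were 6.32% and 11.8%. In both comparisons 0 of the 14 were at least 2-fold higher, where 14.0% and 24.0% of all genes were. Of all genes, 5321 of 5383 and 8824 of 9845 had UMIs in both groups. The rest could only count as past 2-fold, and the shares of all genes include them. Sall1, a transcription factor of microglial identity, had 240 CPM in naive, 101 in physical injury and 75.6 in ischemic injury, Crybb1 284, 120 and 76.7, and Slc2a5, a fructose transporter, 191, 45.2 and 28.4. Olfml3, a secreted matrix protein, ran like Fcrls with 344, 623 and 656 CPM. Of the genes known from activated microglia, 6 of 14 counted were at least 2-fold higher after physical injury and 12 of 17 after ischemic injury. Only 12 of the 14 and 13 of the 17 had UMIs in both groups. The rest had none in naive cluster 9 and could only count as higher. The shares of all genes were 14.0% and 24.0%. Apoe, a lipid carrier, had 900 CPM in naive, 2077 in physical injury and 5250 in ischemic injury, and Spp1 (osteopontin) had 125, 273 and 2705, with a UMI in 5.56%, 16.7% and 51.8% of cells. The summed level of the 14 homeostatic genes was 11741, 10283 and 8010 CPM in cluster 9. Over the other NG2 clusters it was 1494, 1115 and 783 CPM. For the activated microglia genes the sums were 12799, 18934 and 24801 CPM in cluster 9 and 1957, 2445 and 3030 outside it. The part of free RNA in these levels was not tested.

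Most cells of NG2 cluster 9 held several genes of the list. All 8 genes had a UMI in 11 of the 18 naive cells, in 20 of the 36 of physical injury and in 76 of the 164 of ischemic injury, and at least 3 of them in 83.3% (58.6 to 96.4), 86.1% (70.5 to 95.3) and 86.6% (80.4 to 91.4). The 3 shares differed by less than their intervals. In the other NG2 clusters, at least 3 of the genes were found in 1 of 4288 cells (naive), 0 of 2527 (physical injury) and 6 of 3422 (ischemic injury), although 4.48%, 8.67% and 14.8% of those cells had a UMI of at least 1 gene. Because shares depend on depth, each cell was also thinned to 1000 UMIs, with shallower cells left out. The share with at least 3 genes was then 81.2% (16 naive cells), 65.7% (35 after saline) and 65.6% (154 after ET-1/L-NAME). At 5000 UMIs, a depth chosen after the data were seen, it was 92.9% of 14, 100% of 24 and 96.8% of 126 cells.

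**Figure D3:**
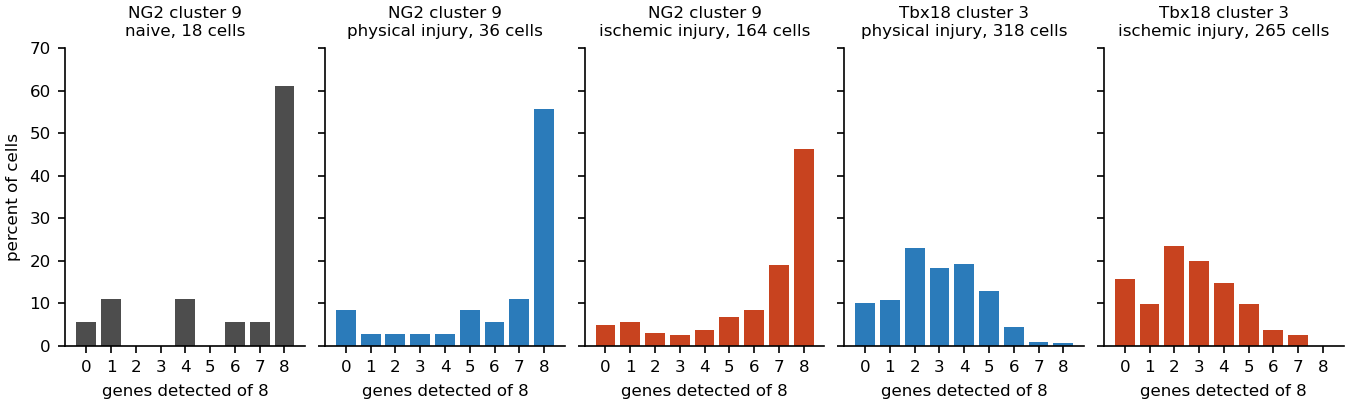
Percent of cells (y axis) by the number of the 8 genes with at least 1 UMI (x axis) in NG2 cluster 9 and Tbx18 cluster 3, 1 panel a library. All 8 genes is the most frequent count in each NG2 library (61.1% in the naive, 55.6% in the physical injury and 46.3% in the ischemic injury library), while cells of the injured Tbx18 libraries centre on 2 to 4 genes; the naive Tbx18 library, with 74 of 76 cells at 0 genes, is not drawn.

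Tbx18 cluster 3 went against its name in the naive library. Its 76 naive cells had a median of 1117.5 UMIs and held 2 UMIs of the list in all, 1 of P2ry12 and 1 of Csf1r. The other 6 genes were at 0, which at this depth allows up to 26.6 CPM (3 counts), and Ptprc, Tyrobp and C1qb, which microglia express, were at 0 as well. These cells had Vtn, a pericyte gene, at 8421 CPM in all of them and Rgs5 at 6176 CPM. They are not described as microglia here, and no naive level of the list exists for the Tbx18 line. In the injured libraries 303 of 318 and 252 of 265 cells of the cluster had at least 3 of the 6 leukocyte genes.

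Within the injured libraries of the Tbx18 line, all 8 genes were present in cluster 3 at levels far below those of NG2 cluster 9. P2ry12 had 39.4 CPM (33.5 to 46.1) after physical and 43.3 (37.2 to 50.1) after ischemic injury, with a UMI in 28.3% and 28.7% of cells. Tmem119 had 9.53 (6.75 to 13.1) and 13.6 (10.2 to 17.6), and P2ry13 had 9.03 (6.33 to 12.5) and 9.68 (6.91 to 13.2). Csf1r, which all macrophages and monocytes carry, was the gene with a UMI in the most cells, 81.8% and 78.1%, at 527 CPM (505 to 550) and 457 (436 to 478). Cx3cr1, which monocytes also use, had 318 (300 to 336) and 296 (280 to 314), and Fcrls had 189 (175 to 203) and 173 (160 to 186). Cluster 3 held 9021 of the 10121 UMIs of the list in this line (89.1%), and each gene was at least 2-fold higher there than in the other clusters (8 of 8, against 14.9% of 16692 genes). The margin was widest for Csf1r (135-fold, 116 to 159) and narrowest for Tmem119 (2.35-fold, 1.82 to 3.00).

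The difference between the lines was graded by gene. Against NG2 cluster 9 after physical injury, the log2 ratio of Tbx18 cluster 3 was -1.49 (-1.61 to -1.38) for Csf1r, -2.23 (-2.35 to -2.10) for Cx3cr1 and -2.87 (-3.02 to -2.73) for Fcrls. It was -3.18 (-3.85 to -2.52) for P2ry13, -3.80 (-4.02 to -3.57) for Gpr34, -4.01 (-4.29 to -3.73) for P2ry12, -4.23 (-4.81 to -3.68) for Tmem119 and -4.39 (-4.74 to -4.06) for Siglech. The genes shared with monocytes thus stood at the small end and Tmem119 and Siglech at the large end. After ischemic injury Csf1r was again the closest at -1.51 (-1.59 to -1.44) and Siglech the farthest at -4.62 (-5.10 to -4.19), while Fcrls, higher in the ischemic NG2 cluster, stood at -3.62 (-3.73 to -3.50). All 8 genes were at least 2-fold lower in the Tbx18 cluster in both comparisons, where 17.3% of 10105 genes were lower after physical and 17.5% of 11537 after ischemic injury; none was higher, where 15.4% and 13.9% were. With TMM factors, the sum of the list moved from -2.49 to -2.13 after physical and from -2.55 to -2.37 after ischemic injury. The lines were prepared and sorted as separate libraries, so line and library cannot be told apart.

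Genes of other macrophages set the clusters apart in the opposite direction. Of the genes known from border macrophages, 7 of 8 counted after physical and 6 of 8 after ischemic injury were at least 2-fold higher in Tbx18 cluster 3 than in NG2 cluster 9. In each comparison 1 of the 8 was lower, after ischemic injury by at least 2-fold. All 7 monocyte genes were at least 2-fold higher in both. Only 3 of the 7 after physical and 6 after ischemic injury had UMIs in both clusters. For the border macrophage genes it was 5 and 7 of the 8. The rest had none in NG2 cluster 9 and could only count as higher. The shares of all genes at least 2-fold higher were 15.4% and 13.9%. Ccr2, the monocyte chemokine receptor, had 467 and 554 CPM in the injured Tbx18 libraries and 0 and 5.84 in those of NG2. Mrc1, a mannose receptor of border macrophages, had 613 and 484 against 13.9 and 68.1, and Cd74, the invariant chain of antigen presentation, 13818 and 11818 against 66.1 and 132. Sall1 was at 0.502 and 0.968 CPM against 101 and 75.6. All 14 other homeostatic microglia genes were at least 2-fold lower in the Tbx18 cluster after physical injury and 11 of 14 after ischemic injury. After physical injury, 2 of the 14 had no UMI in the Tbx18 cluster and could only count as lower. The shares of all genes at least 2-fold lower were 17.3% and 17.5%. Ptprc (CD45), a gene of all leukocytes, was close in level, with 755 and 870 CPM in Tbx18 cluster 3 and 661 and 515 in NG2 cluster 9. Ptprc was thus higher in the Tbx18 cluster in both comparisons, but most of the 12 listed genes of myeloid cells at large, which include it, were not. Of the 12, 10 were lower in the Tbx18 cluster after physical and 11 after ischemic injury. In each comparison 5 of the 12 were at least 2-fold lower.

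At least 3 genes of the list had a UMI in 56.3% (50.6 to 61.8) of the cells of Tbx18 cluster 3 after physical injury and in 50.9% (44.8 to 57.1) after ischemic injury, and all 8 in 2 of 318 and 0 of 265. Thinned to 1000 UMIs, the shares were 8.49% of 318 and 5.32% of 263 cells, against 65.7% and 65.6% in NG2 cluster 9, so the gap between the lines was wider at equal depth. Across both injured libraries of the line, 36 cells held UMIs of 6 to 8 genes of the list, at a median of 14479.5 UMIs. These cells had P2ry12 at 181 CPM, Tmem119 at 73.1, Fcrls at 779 and Csf1r at 1088, and beside them Mrc1 at 1567, Ccr2 at 533 and Sall1 at 4 UMIs in 1 cell. In the injured NG2 libraries, the 147 cluster 9 cells with 6 to 8 of the genes had a median of 26637 UMIs. They had Sall1 in 70.7% of cells, Mrc1 at 59.9 CPM and Ccr2 at 1.50. At the other end, 74 cells of Tbx18 cluster 3 in the injured libraries had none of the 8 genes at a median of 10938.5 UMIs. Of these cells, 22 had UMIs of Cd3e, a T cell gene. These groups were cut by the number of genes of the list, so the levels of the 8 genes in them follow from the cut.

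Between the injured libraries of the Tbx18 line, the list differed little. The log2 ratio of ischemic to physical injury was 0.14 (-0.18 to 0.46) for P2ry12, 0.10 (-0.59 to 0.79) for P2ry13, 0.51 (-0.11 to 1.14) for Tmem119, -0.10 (-0.21 to 0.01) for Cx3cr1 and -0.13 (-0.28 to 0.02) for Fcrls, none beyond counting error. Csf1r was lower by -0.21 (-0.30 to -0.12), Gpr34 by -0.51 (-0.79 to -0.23), with 62.0 CPM (54.5 to 70.2) and 43.6 (37.4 to 50.4), and Siglech by -1.19 (-1.74 to -0.66). Siglech had 97 UMIs in 40 cells after physical injury (24.3 CPM, 19.7 to 29.7) and 44 UMIs in 14 cells after ischemic injury (10.6 CPM, 7.74 to 14.3), and was the 1 gene of 8 at least 2-fold lower, against 2.38% of 11249 genes; 0 of 8 were at least 2-fold higher, against 3.14%. The higher Fcrls of ischemic injury in the NG2 line, 0.61 (0.51 to 0.72) against physical injury, was not seen here. The 3 smooth muscle genes moved with the condition too, with a summed level of 285 CPM in physical and 5.81 in ischemic injury.

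Outside NG2 cluster 9 and Tbx18 cluster 3, most levels were at a few CPM or less. Higher ones were found, among others, for P2ry12, Cx3cr1 and Gpr34 in single NG2 clusters. In the Tbx18 line they were found for Tmem119, for Fcrls and Csf1r in cluster 4 and for P2ry12 in cluster 2. Over all clusters of this line other than cluster 3, Cx3cr1 had the highest level of the list, with 329 UMIs at 7.24 CPM. P2ry12 had 16.1 CPM (10.3 to 24.0, 24 UMIs) in naive Tbx18 cluster 2. P2ry12 in NG2 cluster 6, whose genes are those of oligodendrocyte precursors, had 14.1 CPM in the naive, 16.9 in the physical injury and 16.0 in the ischemic injury library (8, 64 and 63 UMIs), with a UMI in 15.3% of 695 cells. It was 8.12 CPM in cluster 2 and 5.41 in cluster 0, both of pericyte genes, and 2 UMIs in the 958 cells of cluster 5, of endothelial genes. P2ry13, which shares its neighbourhood, had 0 UMIs in clusters 0, 1 and 2. Cluster 6 held 135 P2ry12 and 10 Csf1r UMIs and cluster 9 held 2051 and 5920, and the part of free RNA in the counts of cluster 6 was not tested. Cx3cr1 in cluster 3, of smooth muscle genes, was 6.69 CPM in naive, 6.18 in physical injury and 17.7 in ischemic injury, and Gpr34 in cluster 6 was 7.03, 5.02 and 5.57. Of the 277 cells of ischemic injury cluster 3, 2 had at least 3 of the 6 leukocyte genes. These 2 cells held 7 P2ry12 UMIs and the other 275 held 4. The Cx3cr1 level of cluster 3 includes these 2 cells.

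Tmem119 in the Tbx18 line was found mostly outside cluster 3, which held 29.8% (24.8 to 35.2) of its UMIs. It was highest in cluster 5, of fibroblast genes, with 67.3 CPM (52.1 to 85.7) and a UMI in 44 of 131 cells; all 44 also had UMIs of Col1a1 and Dcn, the collagen and decorin genes, as did 72 (Col1a1) and 81 (Dcn) of the 87 cells without Tmem119. In cluster 4 it had 34.0 CPM (28.7 to 40.0), with 3.43 CPM in the naive, 30.8 in the physical injury and 47.6 in the ischemic injury library, and 75 of the 90 cells with Tmem119 had Col1a1, against 198 of the 559 without it. The same cluster held 58 cells with at least 3 of the 6 leukocyte genes, and none of these had Tmem119, while they held 156 of the cluster's 163 Fcrls UMIs, 100 of its 103 Csf1r UMIs and all 14 of its Siglech UMIs. Of the rest of the list in cluster 4, these 58 cells held 51 Cx3cr1, 25 Gpr34, 13 P2ry12 and 7 P2ry13 UMIs, and the other 591 cells held 5, 6, 4 and 0. All 18 Siglech UMIs of cluster 5 were likewise in 1 cell with leukocyte genes.

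**Figure D4:**
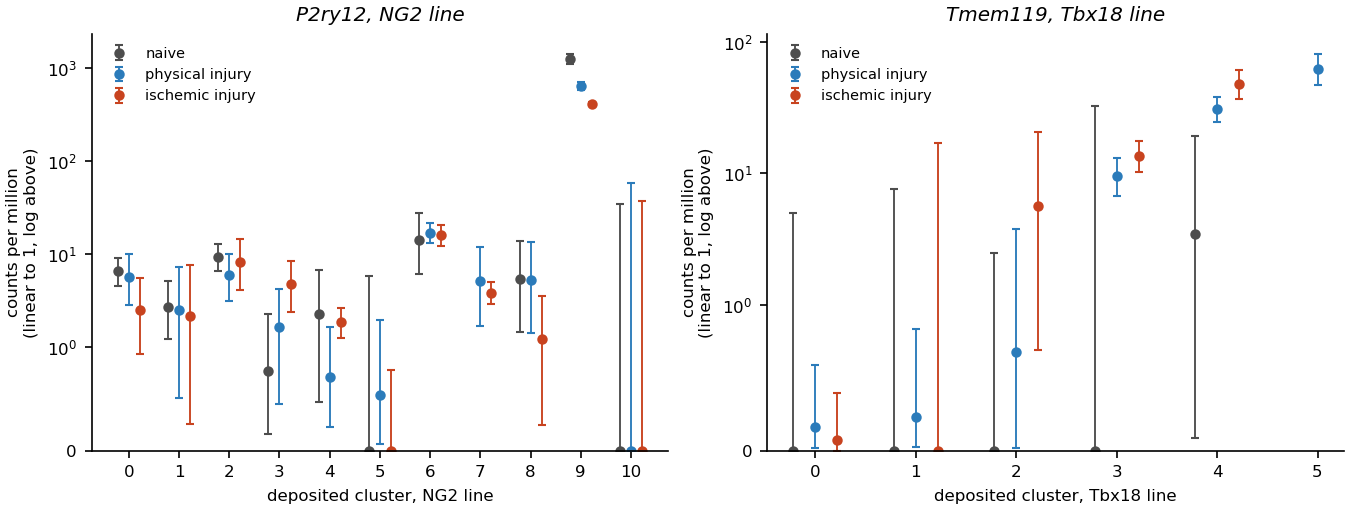
Summed counts as CPM of P2ry12 by NG2 cluster (left) and of Tmem119 by Tbx18 cluster (right), 1 point a library with at least 20 cells (cluster 9 with 18 naive cells also shown), with 95% Poisson intervals; the axis is linear to 1 and logarithmic above. P2ry12 is 14.1 to 16.9 CPM in NG2 cluster 6. Tmem119 in the Tbx18 line is higher in cluster 4 than in cluster 3 in the injured libraries. In cluster 5 it is higher than in cluster 3 after physical injury. Cluster 5 has 10 cells after ischemic injury and is not drawn for that library.

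Across the 47 sums of a cluster in a library with at least 20 cells, the genes with the pattern most like the summed list, by Pearson's r of log2(CPM + 10), were Ly86 (0.973), C1qc (0.973), C1qa (0.970), Fcgr3, C1qb (0.968), Ccl12 (0.966), Trem2 (0.965), Aif1 (0.962), Hk2 and Pik3ap1 (0.959). These correlations are descriptions over sums that share libraries and lines. By gene, the closest outside the list were 4930469K13Rik (0.942) for P2ry12, Cst7 (0.994) for P2ry13, Hcar2 (0.987) for Gpr34, Hpgds (0.978) for Cx3cr1, Ccl12 (0.988) for Csf1r, Ptgs1 (0.901) for Tmem119, AU022793 (0.984) for Siglech and Trem2 (0.991) for Fcrls. Within the list, Gpr34 and P2ry13 were the most alike pair (0.983), and P2ry12 and Tmem119 the least (0.753).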

How the data were processed

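The deposited tables hold 1 UMI count for each gene in each cell. The authors obtained these counts with Cell Ranger (several versions in the methods, 7.0.0 in the submitters' processing notes) on the mm10 genome (GRCm38), and removed cells by genes, UMIs and mitochondrial share in Seurat. No doublet step is given in the sources used here. A deposited percent, the mitochondrial share of each cell as the authors computed it, served only as a filter in an alternative. Cluster numbers are those of the authors' integrated Seurat objects, 1 table for each line.

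For every cluster in a library, the counts of its cells were added up and divided by all UMIs of these cells. Ratios carry exact conditional binomial intervals at 95%. A gene counted towards 2-fold where it had at least 20 counts over both groups. Each of the 6 libraries is 1 group, so no test was made. The rule named the 8 genes, up to 4 genes of highest count from each other list, the 10 genes closest to the summed list and the 3 closest to each gene by correlation (1 is printed), and the largest ratios of each comparison (not printed). Sall1, Crybb1 and Slc2a5 were named after their values were seen. The members and lists were chosen with earlier results of these data known. Alternatives changed the weight of cells, the scaling (TMM factors of edgeR 4.0.16, size factors of DESeq2 1.42.0, or totals without mitochondrial, ribosomal protein and hemoglobin genes), the cells kept and the thinning. The interval and ratio code was tested on simulated data. Positions come from GENCODE M21 and promoters from RefSeq, which may not be the authors' annotation. Some genes are not reported here by name. Whether intronic reads were counted is not given in the sources used here. The work used R 4.3.3 and Python 3.11.15 with scipy 1.17.1, numpy 2.4.6, pandas 2.3.3 and matplotlib 3.10.9.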

Additional observations from a re-analysis of the deposited data

How the results depend on the processing

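The list stayed above the other clusters in both lines and below NG2 cluster 9 in Tbx18 cluster 3 under each alternative run. On the log2 scale of the summed list, NG2 cluster 9 against the other clusters (9.03) became 8.90 with equal weight for each cell, 9.32 with TMM factors, 9.39 with size factors, 9.14 with reduced totals and 9.19 without cells of other-lineage markers; Tbx18 cluster 3 (5.50) became 4.87, 5.89, 5.94, 5.66 and, with cells chosen by leukocyte genes, 6.17. Ischemic against physical injury in NG2 cluster 9 (-0.11) reversed to 0.01 with equal weight, 0.02 with TMM factors, 0.00 with size factors and 0.05 without other-lineage cells. Physical injury against naive (-0.44) became -0.31 without other-lineage cells, -0.53 with leukocyte-gene cells and -0.58 without cells rich in antigen presentation genes, the last chosen after seeing the data; ischemic injury against naive (-0.55) became -0.44 with equal weight, -0.35 with TMM factors, -0.38 with size factors, -0.26 without other-lineage cells and -0.66 without cells rich in antigen presentation genes. Tbx18 ischemic against physical injury (-0.17) became -0.24 with TMM factors. Tbx18 cluster 3 against NG2 cluster 9 (-2.49) became -2.19, -2.13, -2.14, -2.39 (equal weight, TMM, size factors, reduced totals) and -2.40 (leukocyte-gene cells) after physical injury, and (-2.55) became -2.42, -2.37, -2.35, -2.48, -2.48 and, without other-lineage cells, -2.66 after ischemic injury. The share of cells with at least 3 genes was 65.7% at 1000 UMIs and 100% at 5000 in physical injury NG2 cluster 9; in ischemic injury it was 65.6%, 96.8% and, without other-lineage cells, 77.5%. In Tbx18 cluster 3 it was 79.2% for at least 2 and 38.1% for at least 4 genes, 8.49% at 1000 and 43.3% at 5000 UMIs after physical injury, and 74.3%, 30.9%, 5.32% and 31.5% after ischemic injury. The scaling shift between TMM factors and totals was 0.30 and 0.39 for the 2 cluster comparisons, 0.13, 0.07 and 0.19 within NG2 cluster 9, and 0.36 and 0.18 between the lines. The causes were not tested. Among single genes, no ratio whose main interval left out 0 changed sign. Of the values of single genes, 450 lay inside the main interval and 106 outside it. Tbx18 naive cluster 3 held 0 cells under the leukocyte-gene and other-lineage settings, so those comparisons gave no value. No paired analysis was possible because each group is 1 library. The naive NG2 cluster is limited by 183289 UMIs in 18 cells, and levels between genes are not comparable in 3' counts.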

Other observations

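The ligands of 2 receptors of the list were found in other clusters. Il34, a ligand of Csf1r, had 411, 455 and 465 CPM in NG2 clusters 0, 1 and 2, which carry pericyte genes, and 0, 0 and 3.34 CPM in naive, physical injury and ischemic injury cluster 9. Csf1, the other ligand, was in cluster 9 itself, with 224, 419 and 283 CPM in the same order, and in cluster 4 with 130 CPM. Cx3cl1, the fractalkine gene, was highest among vessel cells, with 59.2 CPM in the endothelial NG2 cluster 5 and 56.3 CPM in Tbx18 cluster 0.

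P2ry14, which lies beside P2ry12 and P2ry13, had the reverse pattern of its neighbours. It had 1045, 1219 and 1048 CPM in NG2 clusters 0, 1 and 2 and 5.46, 3.48 and 6.95 CPM in naive, physical injury and ischemic injury cluster 9. The driver genes were low in NG2 cluster 9 and in the injured cells of Tbx18 cluster 3. Cspg4, which encodes NG2, had 0, 3.48 and 13.6 CPM in NG2 cluster 9 against 301 CPM in the other clusters. Tbx18 had 1.51 and 0.726 CPM in the injured Tbx18 cluster 3 against 42.7 CPM in the other clusters. Low driver levels were not particular to these clusters. Cspg4 had 6.94 CPM in NG2 cluster 4, and Tbx18 had 1.11 CPM in Tbx18 cluster 0. The tdT reporter transcript was not analysed here.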
